A study of Mus musculus with 20 samples.

Results

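Collagen chains were taken as all genes whose symbol has the form Col, number, a, number, with Col17a1 left out. They were 43 of the 53380 genes in the table. A chain was tested when it reached a normalized count of 10 in at least 3 of the 20 libraries, which 37 chains did among 17204 tested genes. The 6 chains that did not pass, Col2a1, Col9a1, Col9a2, Col10a1, Col13a1 and Col28a1, never exceeded 21.1 in any library.

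The study sorted 5 populations of cells from mouse dorsal epidermis and profiled each in bulk by RNA-seq to set keratinocytes that carry the surface glycoprotein Thy1 beside their neighbours. Thy1hi and Thy1- cells (4 libraries each) are basal keratinocytes of the interfollicular epidermis sorted as positive for integrin-α6 and Sca1, with high Thy1 or without Thy1. Hair follicle stem cells (HFSCs, 4 libraries) were sorted as CD34-positive and Sca1-negative, and dendritic epidermal T cells (DETCs, 5 libraries), the resident γδ T cells, as integrin-α6-negative and Thy1-positive with little or no Sca1. YFP cells (3 libraries) are Thy1-positive, Sca1-positive keratinocytes sorted as YFP-expressing from Thy1-CreERT2 mice that carry the Rosa26-EYFP reporter. The sample labels give the genotype Thy1.2CreERT2-Rosa26-EYFP and no treatment for every sample, whereas the study's text describes wild-type C57BL/6J mice for the first 4 populations and induced mice for the YFP cells. The ages in the labels run from 8 to 27 weeks, 1 week more for each sample, while the design text gives 8-week-old animals. The cell type label of the YFP samples reads ScaI-, against their titles and the study's text. In that line a Thy1 promoter drives Cre. The study mentions pooled mice, but how many mice a library holds is unclear, so p-values measure only the spread between libraries, which may be technical. More than 1 kind of library kit and a pair of batches are stated without saying which sample belongs to which, so population and batch cannot be told apart.

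Reads on genes ranged from 7781256 to 12982393 per library, and the ribosomal RNA gene Rn45s took 13.1% to 41.5% of them. RNA of the sorted surface markers followed the sample titles. Ly6a, the gene of Sca1, lay at 200 to 401 in YFP cells, unlike their ScaI- cell type label. It lay at 185 to 261 in Thy1hi cells, 94.9 to 148 in Thy1- cells, 35.0 to 78.5 in HFSCs and 6.86 to 66.5 in DETCs. Thy1 lay at 511 to 775 normalized counts in Thy1hi cells and at 63.1 to 77.8 in Thy1- cells, and Cd34 at 1599.8 to 2622 in HFSCs and at 43.8 to 130.1 elsewhere. Marker genes of T cells summed to 13623 to 23876 in DETCs and to 79.7 to 304 in the other populations. DETC libraries still held keratinocyte RNA (Krt14 at 3319 to 16495), and Cd74, carried by Langerhans cells, lay at 944, 1869, 1405 and 20.3 in the 4 HFSC libraries, lowest in library 4. In 2 DETC libraries the column name matched no sample number, and these are called a and b. In bulk libraries, fewer cells of a type and less RNA per cell cannot be told apart.

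Collagens are secreted or membrane-bound proteins in which 3 chains wind into a triple helix. Fibrillar collagens such as types I, III and V give connective tissue its tensile strength and are made mainly by fibroblasts. The basement membrane under the epidermis is a network of type IV collagen, and anchoring fibrils of type VII, made by basal keratinocytes, tie it to the dermis. Enzymes and chaperones hydroxylate, fold, trim and crosslink the chains, and cells bind finished collagens through integrin and DDR receptors.

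The sequence upstream of a type IV and a type VIII chain pair is shown, because Col4a3 and Col4a4 were both high in HFSCs while Col8a1 and Col8a2 had different patterns. Col4a4 and Col4a3 lie head to head on chromosome 1 with their starts 72 bases apart, so a single stretch separates them. The genes of Col8a1 on chromosome 16 and Col8a2 on chromosome 4 lie apart. RefSeq windows for build GRCm38 gave 71 bases between the Col4a4 and Col4a3 starts (chr1:82586850-82586920, shown on the minus strand, that of Col4a4), 100 bases before Col8a1 (chr16:57754738-57754837, minus strand) and 99 bases before Col8a2 (chr4:126286694-126286792, plus strand). Of the 43 chains, 34 had an entry. Bases that match a GGGCGG box on either strand are in capitals.
Col4a4 and Col4a3: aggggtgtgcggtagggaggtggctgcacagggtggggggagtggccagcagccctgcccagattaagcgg
Col8a1: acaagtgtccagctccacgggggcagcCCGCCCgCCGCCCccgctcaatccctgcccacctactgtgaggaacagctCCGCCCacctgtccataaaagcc
Col8a2: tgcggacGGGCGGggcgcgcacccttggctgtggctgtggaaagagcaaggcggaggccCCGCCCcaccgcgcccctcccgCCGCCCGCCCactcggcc
The TATA box letters TATAAA, the CCAAT box, the GC box letters GGGCGG and the AP-1 letters TGANTCA were searched on both strands. GGGCGG occurred 3 times before Col8a1 and 4 times before Col8a2, counting overlapping matches, and was in 24.7% of the 32851 windows of 100 bases and 24.6% of those of 99. None of the 4 motifs was in the 71 bases between Col4a4 and Col4a3, and in windows of that length they were in 4.41%, 13.3%, 20.7% and 1.86% of all promoters in the order given.

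Levels compared between genes were divided by exon length (normalized counts per kilobase, kb). On this scale Col7a1, the anchoring fibril chain, was the highest chain in Thy1hi cells at 357, in Thy1- cells at 207 and in HFSCs at 369. Col18a1, a basement membrane collagen, led in YFP cells at 329 and Col27a1, a fibrillar chain, led in DETCs at 227. The summed level of all 43 chains was 1473 ± 181 (SD) per kb in Thy1hi cells and 848 ± 137 in Thy1- cells. It was 1817 ± 453 in HFSCs and 830 ± 116 in DETCs, so a larger share need not be a higher level. As shares of this sum, basement membrane type IV chains made up 15.2% ± 2.62 (SD, n = 4) in Thy1hi cells, 22.4% ± 2.65 in Thy1- cells and 14.6% ± 1.66 in HFSCs. Type VI chains, the beaded filaments, made up 18.5% ± 4.38 in HFSCs but 3.11% ± 0.607 in Thy1hi cells. Fibrillar chains made up 37.1% ± 11.8 (n = 5) in DETCs, against 7.35% ± 5.79 in Thy1hi cells. Most of the DETC share was Col27a1, which alone held 27.4% of the summed mean level there and 0.155% in Thy1hi cells. The plot of family shares sets these side by side, and no test was run on them.

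**Figure D1:**
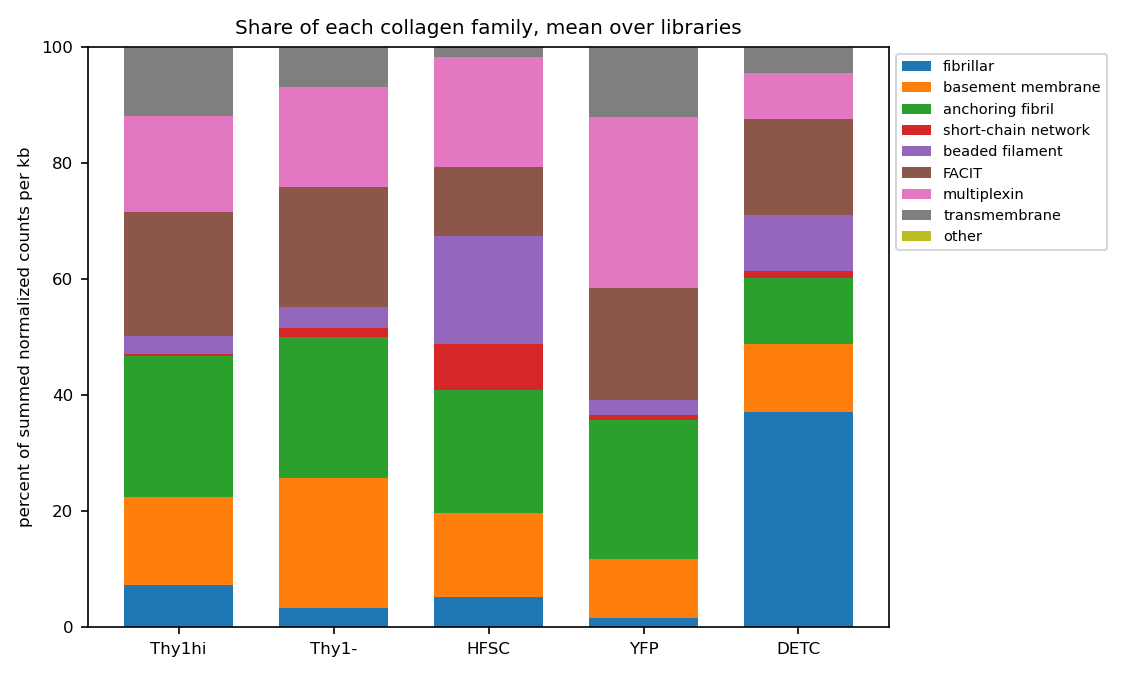
Each bar is 1 population and its colours the mean share over libraries of each collagen family in the summed normalized counts per kb (percent, vertical axis). Fibrillar chains take 37.1% in DETCs and 3.36% in Thy1- cells, and type VI beaded filament chains 18.5% in HFSCs. Col27a1 alone holds 27.4% of the summed mean level in DETCs.

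In the comparisons of levels, 13 of the 37 tested chains differed between Thy1hi cells and HFSCs, 3 higher and 10 lower in Thy1hi cells, where 13.4% of all tested genes passed (6.51% higher, 6.86% lower). Between Thy1- cells and HFSCs 8 chains passed, all lower in Thy1- cells, where 6.08% of all genes passed (2.56% higher, 3.52% lower). Between Thy1hi and Thy1- cells 1 chain passed, lower in Thy1hi cells, where 0.337% of all genes passed (0.116% higher, 0.221% lower). Deviations of same-numbered Thy1hi and Thy1- libraries from their population means had r of 0.293 to 0.716 over the 4 pairs. Differently numbered ones had r of -0.651 to 0.514, so the ranges overlap. The sample titles give only replicate numbers, so the pairing of same-numbered libraries is an assumption. With the replicate number as a block, in a fit of these 8 libraries alone, 10 chains passed. Of these, 9 were higher and 1 lower in Thy1hi cells, where 6.61% of all genes passed (3.42% higher, 3.19% lower). The same fit without the block gave 3 chains and 0.552% of all genes. DETCs differed from HFSCs in 20 chains, 5 higher and 15 lower, where 39.7% of all genes passed (21.2% higher, 18.5% lower). They differed from Thy1hi cells in 9 chains, 3 higher and 6 lower, where 36.6% of all genes passed (19.9% higher, 16.6% lower). The median difference of the 37 chains between DETCs and HFSCs was -0.35 on the log2 scale, and of all tested genes 0.02. Log2 differences are on the scale of log2(normalized count + 1), which understates the change of low genes. The exceptions are those named as from edgeR, DESeq2, another pseudocount or rescaled libraries. HFSCs had the highest mean of 14 chains, Thy1hi cells of 11, DETCs of 7 and Thy1- cells of 5, while YFP cells had the highest of none. The same count was not made over all tested genes, so it cannot be read as particular to collagens. Some of these chains had few reads, such as Col24a1 with 0 to 15 in a Thy1hi library.

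**Figure D2:**
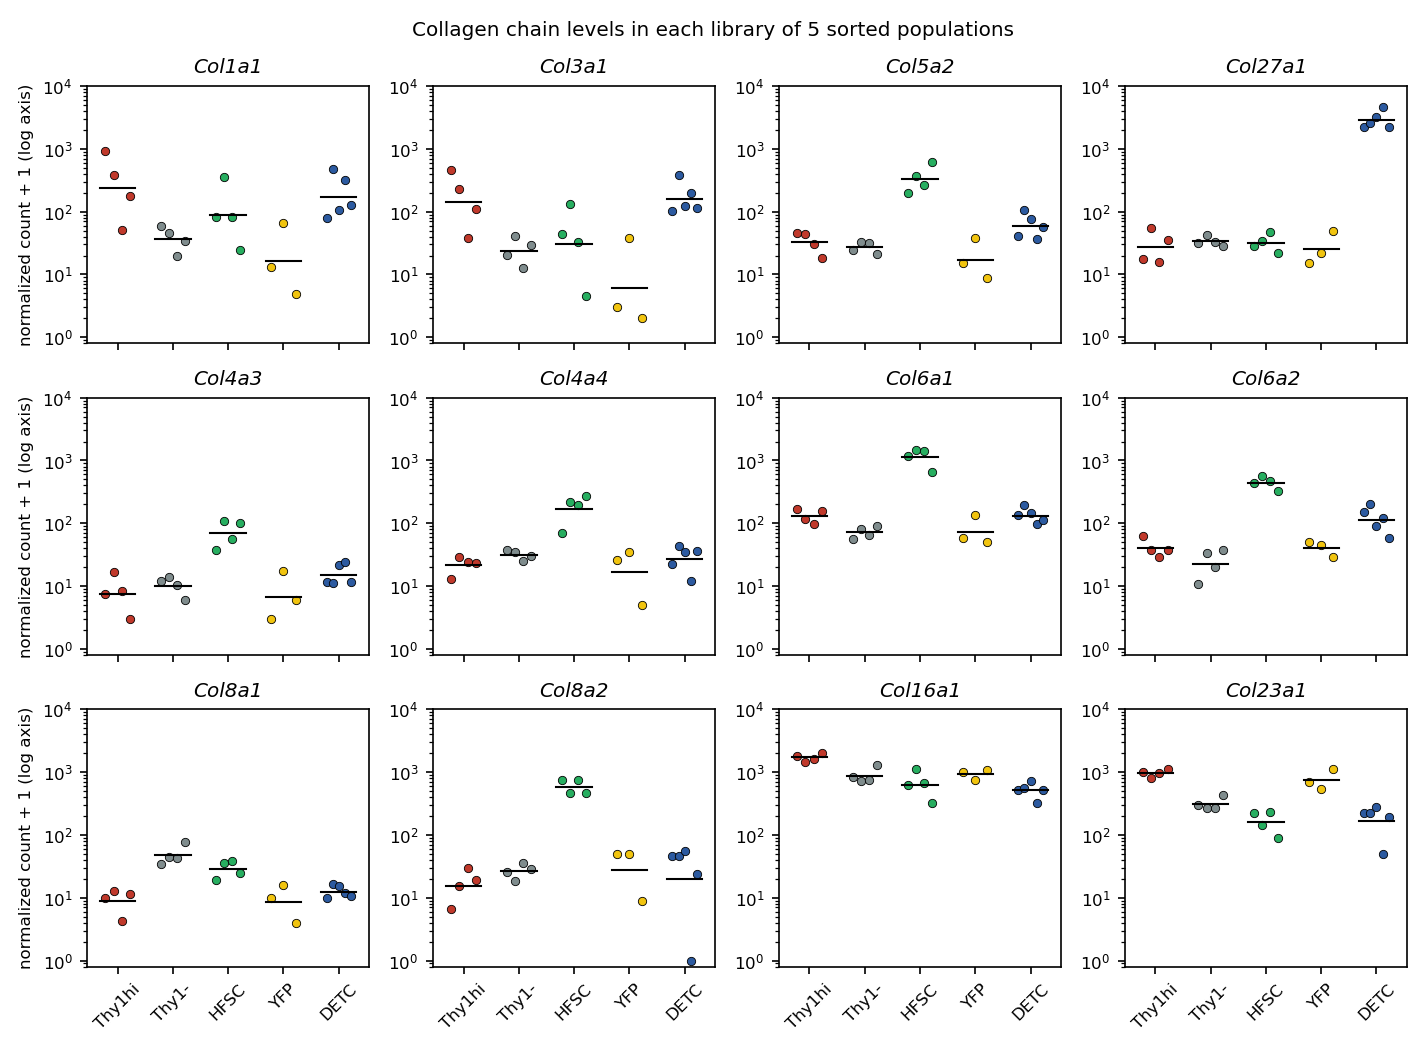
Each panel is 1 chain, each point 1 library (normalized count + 1, log axis) in 5 populations, and each bar the mean of the log values. Col6a1, Col6a2, Col5a2, Col4a3, Col4a4 and Col8a2 stand highest in the 4 HFSC libraries, and Col27a1 in the 5 DETC libraries at 2237 to 4589.

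Col1a1 and Col3a1, chains of the dermal fibrillar collagens I and III, varied widely among the Thy1hi libraries. Col1a1 lay at 909, 387, 50.4 and 178 in the 4 Thy1hi libraries and at 57.2, 44.0, 18.9 and 33.6 in the Thy1- libraries. Col3a1 lay at 459, 227, 36.6 and 108 in Thy1hi and at 19.5, 40.5, 11.8 and 28.7 in Thy1- libraries. Every Thy1hi library exceeded the Thy1- library of the same number for both genes, but the groups overlapped, since Thy1hi library 3 lay below the highest Thy1- value of each. The log2 difference of Col1a1 was 2.70 ± 0.87 (SE), adjusted p = 0.296, which did not pass. With the assumed pairing by replicate number as a block, adjusted p = 0.00169, which did. For Col3a1 it was 2.59 ± 0.94 (SE), adjusted p = 0.406, and adjusted p = 0.00444 with the block. The exact two-sided permutation test gave p = 0.0571 for Col1a1 and p = 0.0571 for Col3a1, where the smallest p that 4 against 4 libraries allow is 0.0286. Col1a2, the partner of Col1a1 in type I collagen, lay at 479, 278, 67.5 and 79.5 in Thy1hi and 86.3, 69.4, 71.8 and 37.7 in Thy1- libraries, where the groups overlapped, and was higher in 3 of 4 pairs. Its log2 difference was 1.35 ± 0.50 (SE), adjusted p = 0.435, and adjusted p = 0.0415 with the block.

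Markers of fibroblasts were measured beside these chains. Dcn, the proteoglycan decorin, lay at 50.8, 32.9, 6.50 and 15.5 in Thy1hi and 12.2, 11.6, 1.58 and 2.46 in Thy1- libraries. Fbn1, a microfibril protein, lay at 67.3, 68.5, 8.13 and 10.7 in Thy1hi and 19.5, 24.3, 7.10 and 5.74 in Thy1- libraries. Dcn and Fbn1 were higher in the Thy1hi library of all 4 pairs, as Col1a1 was. Lum lay at 14.35, 13.17, 1.63 and 0.97 in Thy1hi and 1.22, 2.31, 2.37 and 0 in Thy1- libraries. Fbln1 lay at 85.0, 75.1, 128 and 60.1 in Thy1hi and 42.6, 82.15, 41.8 and 59.0 in Thy1- libraries. Lum and Fbln1 were each higher in the Thy1hi library of 3 of 4 pairs. Pdgfra, the receptor that marks many fibroblasts, was lower in the Thy1hi library of 3 of 4 pairs, at 34.2, 44.8, 23.6 and 22.3 in Thy1hi and 38.9, 47.4, 27.6 and 20.5 in Thy1- libraries (log2 difference -0.09 ± 0.47 (SE), adjusted p = 0.999). Across the 20 libraries the log2 levels of Col1a1 had r = 0.809 with Dcn, 0.752 with Fbn1 and 0.573 with Pdgfra, as a description of libraries that share populations. For the deviations from the population means these were 0.717, 0.668 and 0.512. The list of 10 fibroblast genes other than collagens summed to 127.1 to 258 in Thy1hi and 88.4 to 186 in Thy1- libraries, and Dpt and Mfap5 were near 0 in both (at most 6.08 and 3.65). Mgp lay at 1.10 to 7.76 in Thy1hi and 3.16 to 10.9 in Thy1- libraries. The 5 tested members of the list, Dcn, Fbn1, Lum, Fbln1 and Pdgfra, had a median log2 difference of 1.04. None of them passed without the block, and with it Dcn did (adjusted p = 0.0147). The part of these cells in the result was not tested. In HFSCs Col1a1 lay at 79.7, 356, 81.2 and 23.8, in YFP cells at 12.0, 65.0 and 3.96 and in DETCs at 77.3, 469.8, 105, 314 and 125.

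**Figure D3:**
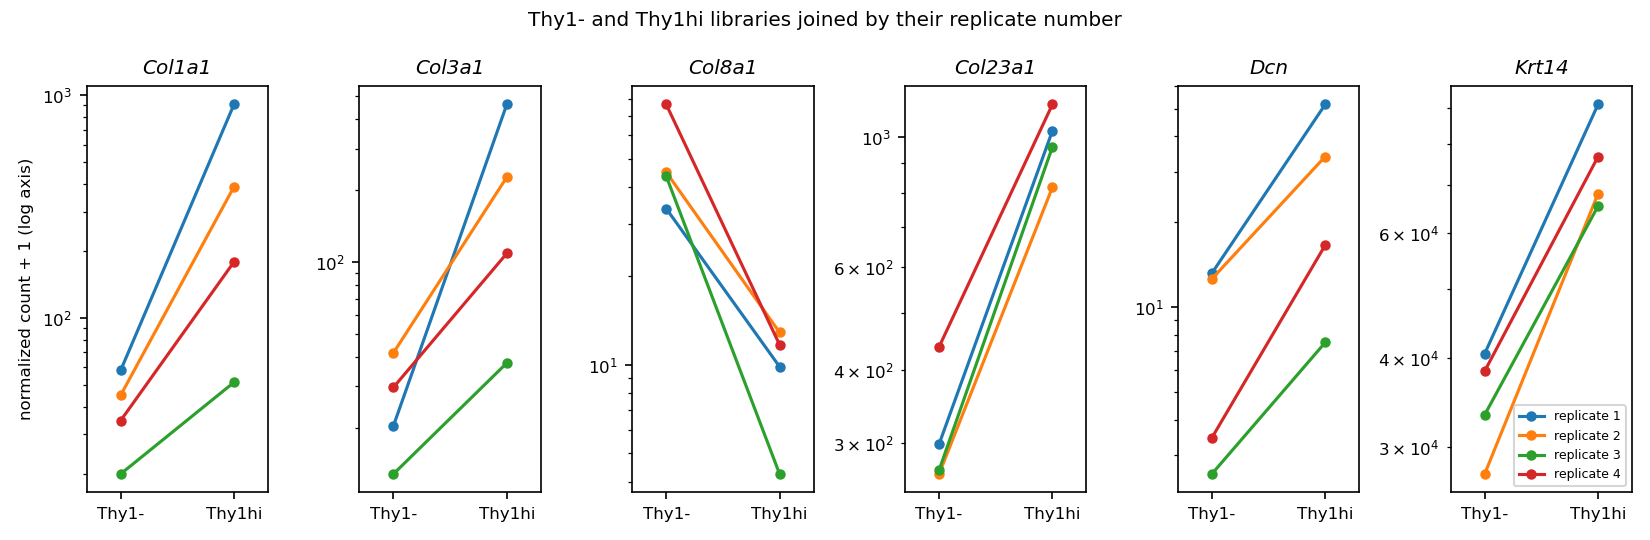
Each line joins the Thy1- and the Thy1hi library of 1 replicate number (normalized count + 1, log axis, with its own range in every panel). Col1a1, Col3a1, Col23a1, Dcn and Krt14 are higher in the Thy1hi library of 4 of 4 pairs and Col8a1 is lower in 4 of 4.

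Col5a2, a chain of the fibril-thickness regulator type V collagen, was higher in HFSCs than in both basal populations. It lay at 194, 368, 261 and 625 in HFSCs, at 44.2, 43.5, 29.3 and 17.5 in Thy1hi and at 23.1, 32.4, 30.8 and 20.5 in Thy1- libraries, and the HFSC values lay above all of these. The log2 difference was -3.34 ± 0.45 (SE), adjusted p = 3.36e-05 for Thy1hi cells and -3.60 ± 0.45 (SE), adjusted p = 3.87e-05 for Thy1- cells, each against HFSCs. Each exact test gave p = 0.0286, the smallest these 4 against 4 libraries allow.

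Type VI collagen, a filament of α1, α2 and α3 chains around cells, had its α1 and α2 chains higher in HFSCs than in both basal populations. Col6a1 lay at 1188, 1485, 1436 and 664 in HFSCs, at 166, 115, 97.5 and 156 in Thy1hi and at 54.7, 78.7, 63.9 and 89.3 in Thy1- libraries. Col6a2 lay at 429, 560.4, 464 and 321 in HFSCs, 61.8, 36.9, 28.4 and 35.9 in Thy1hi and 9.73, 32.4, 18.9 and 36.1 in Thy1- libraries. The HFSC libraries stood above all Thy1hi and Thy1- libraries for both, with log2 differences of -3.12 ± 0.31 (SE), adjusted p = 1.47e-06 for Col6a1 and -3.44 ± 0.39 (SE), adjusted p = 5.65e-06 for Col6a2 in Thy1hi cells, and -4.00 ± 0.31 (SE), adjusted p = 2.10e-07 and -4.26 ± 0.39 (SE), adjusted p = 1.34e-06 in Thy1- cells. The third chain, Col6a3, lay at 104, 98.8, 72.7 and 9.11 in HFSCs and 121, 56.6, 27.6 and 65.0 in Thy1hi libraries, and did not pass there (log2 difference 0.19 ± 0.67 (SE), adjusted p = 0.877), where its sign changed with edgeR, with DESeq2 and without HFSC library 4 or Thy1hi library 1. Log2 levels of Col6a1 and Col6a2 had r = 0.891 over the 20 libraries, and those of Col6a1 and Col6a3 r = 0.0861, while the deviations from the population means had r = 0.614 and 0.719. Between Thy1hi and Thy1- cells, Col6a1 had a log2 difference of 0.88 ± 0.31 (SE), adjusted p = 0.389, and adjusted p = 0.0276 with the block.

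Other marker lists were read beside these chains. The fibroblast list summed to 263 to 443 in HFSCs, above the Thy1hi range, and its largest member was Fbln1, an extracellular glycoprotein, at 205, 324, 377 and 409 against 85.0, 75.1, 128 and 60.1 in Thy1hi libraries. Dcn stayed at 2.31 to 8.69 in HFSCs, against 6.50 to 50.8 in Thy1hi libraries. Fbn1 lay at 2.80 to 18.5, Lum at 0 to 10.9 and Pdgfra at 10.5 to 39.2 in HFSCs. In Thy1hi libraries these genes lay at 8.13 to 68.5, 0.97 to 14.35 and 22.3 to 44.8. The 5 tested members had a median log2 difference of 1.33 between Thy1hi cells and HFSCs. Of them 0 were higher and 1 lower in Thy1hi cells, where 6.51% of all genes were higher and 6.86% lower. Of the pericyte and smooth muscle markers, Cspg4, a membrane proteoglycan, lay at 1327, 1421, 1437 and 943 in HFSCs and 167, 153, 236 and 374 in Thy1hi libraries and was lower in Thy1hi cells (-2.53 ± 0.32 (SE), adjusted p = 1.59e-05). The other 3 tested markers, Acta2, Pdgfrb and Myh11, did not pass, with log2 differences of 1.90, 0.99 and 1.82. Rgs5 was at 0 in every HFSC library. The part of other cell types in the result was not tested.

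The type IV chains of the basement membrane are encoded in 3 head-to-head gene pairs. Col4a1 lay at 324, 924, 374 and 234 in HFSCs and at 197, 183, 128 and 227 in Thy1hi libraries. Col4a2 lay at 361, 871, 484 and 276 in HFSCs and 178, 165, 185 and 341 in Thy1hi libraries. HFSC library 2 was the highest of both. Col4a1 had a log2 difference of -1.16 ± 0.36 (SE), adjusted p = 0.0381 and Col4a2 of -1.12 ± 0.33 (SE), adjusted p = 0.0293, and both calls were lost without HFSC library 2 or 3, without Thy1hi library 1, 2 or 3, without the filter on low values, or with only these libraries in the fit, and that of Col4a1 also with libraries rescaled without Rn45s. Col4a3 lay at 36.9, 109.7, 55.6 and 100.2 in HFSCs, 6.62, 15.8, 7.32 and 1.94 in Thy1hi and 10.9, 12.7, 9.47 and 4.92 in Thy1- libraries. Col4a4, which shares its start region with Col4a3, lay at 69.3, 217, 196 and 273 in HFSCs, 12.1, 27.7, 23.6 and 22.3 in Thy1hi and 36.5, 33.5, 23.7 and 29.5 in Thy1- libraries. All HFSC values of both stood above the others, and the log2 difference was -3.23 ± 0.57 (SE), adjusted p = 5.86e-04 for Col4a3 and -2.98 ± 0.54 (SE), adjusted p = 7.55e-04 for Col4a4 in Thy1hi cells. In Thy1- cells the differences from HFSCs were -2.80 ± 0.57 (SE), adjusted p = 0.00498 and -2.43 ± 0.54 (SE), adjusted p = 0.00923. Levels of Col4a3 and Col4a4 had r = 0.771 across the 20 libraries but 0.218 for the deviations from the population means, against 0.825 for Col4a1 and Col4a2. Exons of C430014B12Rik, on the other strand, overlap 563 bases (5.65%) of the Col4a3 exons, and those of Col4a1 and Col4a2 share 22 bases.

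Col4a5 and Col4a6, the pair on the X chromosome, did not pass between Thy1hi cells and HFSCs. Their levels had r = 0.946 across the libraries, with Col4a5 at 497, 424, 584 and 631 and Col4a6 at 598, 512, 648 and 916 in Thy1hi cells. In DETCs Col4a5 lay at 146, 175, 265, 56.2 and 196 and Col4a6 at 239, 142, 269, 67.2 and 132, below all Thy1hi libraries, with log2 differences of -1.81 ± 0.30 (SE), adjusted p = 7.76e-05 and -2.09 ± 0.30 (SE), adjusted p = 1.36e-05. HFSCs held Col4a5 at 332, 453, 377 and 403 and Col4a6 at 337, 479, 386 and 339. The log2 differences of Thy1hi cells from HFSCs were 0.44 ± 0.32 (SE), adjusted p = 0.388 for Col4a5 and 0.77 ± 0.32 (SE), adjusted p = 0.116 for Col4a6, and the Col4a6 groups did not overlap. Per length, these 2 chains were the highest of type IV in Thy1hi cells, at 79.5 and 83.9 per kb, and Col4a2 with 75.3 was the highest in HFSCs.

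Col7a1 and Col18a1 were the highest chains of the epidermal junction. Col7a1 lay at 3684, 3052, 3662 and 4279 in Thy1hi, 1999, 2085, 1753 and 2674 in Thy1- and 3073, 4259, 3106 and 4744 in HFSC libraries. The Thy1hi libraries all exceeded the Thy1- libraries, with a log2 difference of 0.79 ± 0.31 (SE), adjusted p = 0.472, and adjusted p = 0.00278 with the block. Col18a1, which releases endostatin, lay at 1952, 1552, 1616 and 1645 in Thy1hi and at 1047, 1081, 909 and 989 in Thy1- libraries, with no overlap (log2 difference 0.75 ± 0.31 (SE), adjusted p = 0.535, and adjusted p = 0.00238 with the block). HFSCs had 1981, 4689, 2025 and 1445, and Thy1- cells lay below them with a log2 difference of -1.18 ± 0.31 (SE), adjusted p = 0.0249. This call was lost without HFSC library 2 or without Thy1- library 1, 2 or 3, with rescaled libraries, and with only these libraries in the fit.

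Type VIII collagen, a short-chain network of vascular and eye membranes, had chains with different patterns. Col8a1 lay at 8.83, 11.8, 3.25 and 10.7 in Thy1hi, 32.8, 44.0, 42.6 and 75.4 in Thy1- and 18.5, 34.8, 37.4 and 23.8 in HFSC libraries, so that Thy1hi cells held the lowest of these 3 with no overlap. Col8a2 lay at 5.52, 14.5, 29.3 and 18.4 in Thy1hi, 24.3, 17.4, 34.7 and 27.9 in Thy1- and 753, 458, 747 and 459.6 in HFSC libraries, and the HFSC libraries stood above all Thy1hi and Thy1- libraries. Reads behind Col8a1 were few, 4 to 11 in a Thy1hi library and 27 to 92 in a Thy1- library. Col8a1 was lower in Thy1hi than in Thy1- cells (-2.42 ± 0.45 (SE), adjusted p = 0.0223) and than in HFSCs (-1.68 ± 0.45 (SE), adjusted p = 0.0149). Col8a2 was lower in Thy1hi cells (-5.23 ± 0.90 (SE), adjusted p = 4.78e-04) and Thy1- cells (-4.48 ± 0.90 (SE), adjusted p = 0.00483) than in HFSCs, and the log2 difference between Thy1hi and Thy1- cells was -0.75 ± 0.90 (SE), adjusted p = 0.999. Levels of the 2 chains had r = 0.381 across the 20 libraries. The call of Col8a1 between Thy1hi and Thy1- cells was lost without Thy1hi library 1 or 3 or Thy1- library 2, 3 or 4, and the call against HFSCs without Thy1hi library 3. The Col8a2 call between Thy1- cells and HFSCs was lost at a pseudocount of 0.1.

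Col23a1 and Col16a1 were higher in Thy1hi cells than in HFSCs. Col23a1, a transmembrane collagen, lay at 1021, 818, 958 and 1133 in Thy1hi, 298, 265, 269 and 437 in Thy1- and 226, 144, 228 and 86.9 in HFSC libraries. Col16a1, a FACIT collagen (one that attaches to fibrils with interruptions in the helix), lay at 1830.4, 1448, 1631 and 2028 in Thy1hi, 822, 725, 749 and 1300.1 in Thy1- and 629, 1132, 661 and 317 in HFSC libraries. Neither chain's Thy1hi libraries overlapped with either of the other groups. Against HFSCs the log2 differences were 2.61 ± 0.41 (SE), adjusted p = 1.83e-04 for Col23a1 and 1.47 ± 0.30 (SE), adjusted p = 0.00232 for Col16a1. Against Thy1- cells the log2 difference of Col23a1 was 1.65 ± 0.41 (SE), adjusted p = 0.106, and adjusted p = 5.95e-05 with the block. That of Col16a1 was 0.98 ± 0.30 (SE), adjusted p = 0.250, and adjusted p = 0.00104 with the block. Keratinocyte markers were read beside them. Krt14 lay at 90985, 68124, 65455 and 76817 in Thy1hi and 40609, 27508, 33318 and 38378 in Thy1- libraries, and the 5 basal markers summed to 171225 to 228574 in Thy1hi and 75406 to 121650 in Thy1- libraries. Levels of Col23a1 and Krt14 had r = 0.920 across the 20 libraries and 0.905 for deviations from the population means, and the part of keratinocyte content in the result was not tested. With the block all 5 basal keratinocyte markers were higher in Thy1hi cells (median log2 difference 0.86), where 3.42% of all genes were higher. All 4 suprabasal keratinocyte markers (Krt1, Krt10, Lor and Flg2) were lower with it (median log2 difference -1.13). So were 3 of 5 Langerhans cell and macrophage markers (Cd207, Cd74 and H2-Ab1), where 6.61% of all genes passed. None of the markers in these lists passed without the block. The suprabasal list summed to 8707 to 28856.7 in Thy1hi and 27326.7 to 42125.6 in Thy1- libraries, and the part of these cells in the chains gained with the block was not tested.

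Col12a1 and Col19a1, also FACIT collagens, had opposite differences. Col12a1 lay at 1325, 1380.4, 1586 and 1827 in HFSCs, 654, 540.0, 842 and 585 in Thy1hi and 333, 441, 411 and 459 in Thy1- libraries, with no overlap between these 3. The log2 difference from HFSCs was -1.23 ± 0.25 (SE), adjusted p = 0.00239 in Thy1hi and -1.89 ± 0.25 (SE), adjusted p = 9.69e-05 in Thy1- cells. Between Thy1hi and Thy1- cells its log2 difference was 0.66 ± 0.25 (SE), adjusted p = 0.462, and adjusted p = 0.0228 with the block. Col19a1 lay at 23.2, 18.4, 6.50 and 18.4 in Thy1hi and 0, 0, 1.07 and 9.11 in HFSC libraries, which overlapped, with a log2 difference of 2.92 ± 0.70 (SE), adjusted p = 0.00791. The reads behind Col19a1 were few, 0 to 13 in an HFSC library and 8 to 21 in a Thy1hi library, and the call was lost with edgeR.

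**Figure D4:**
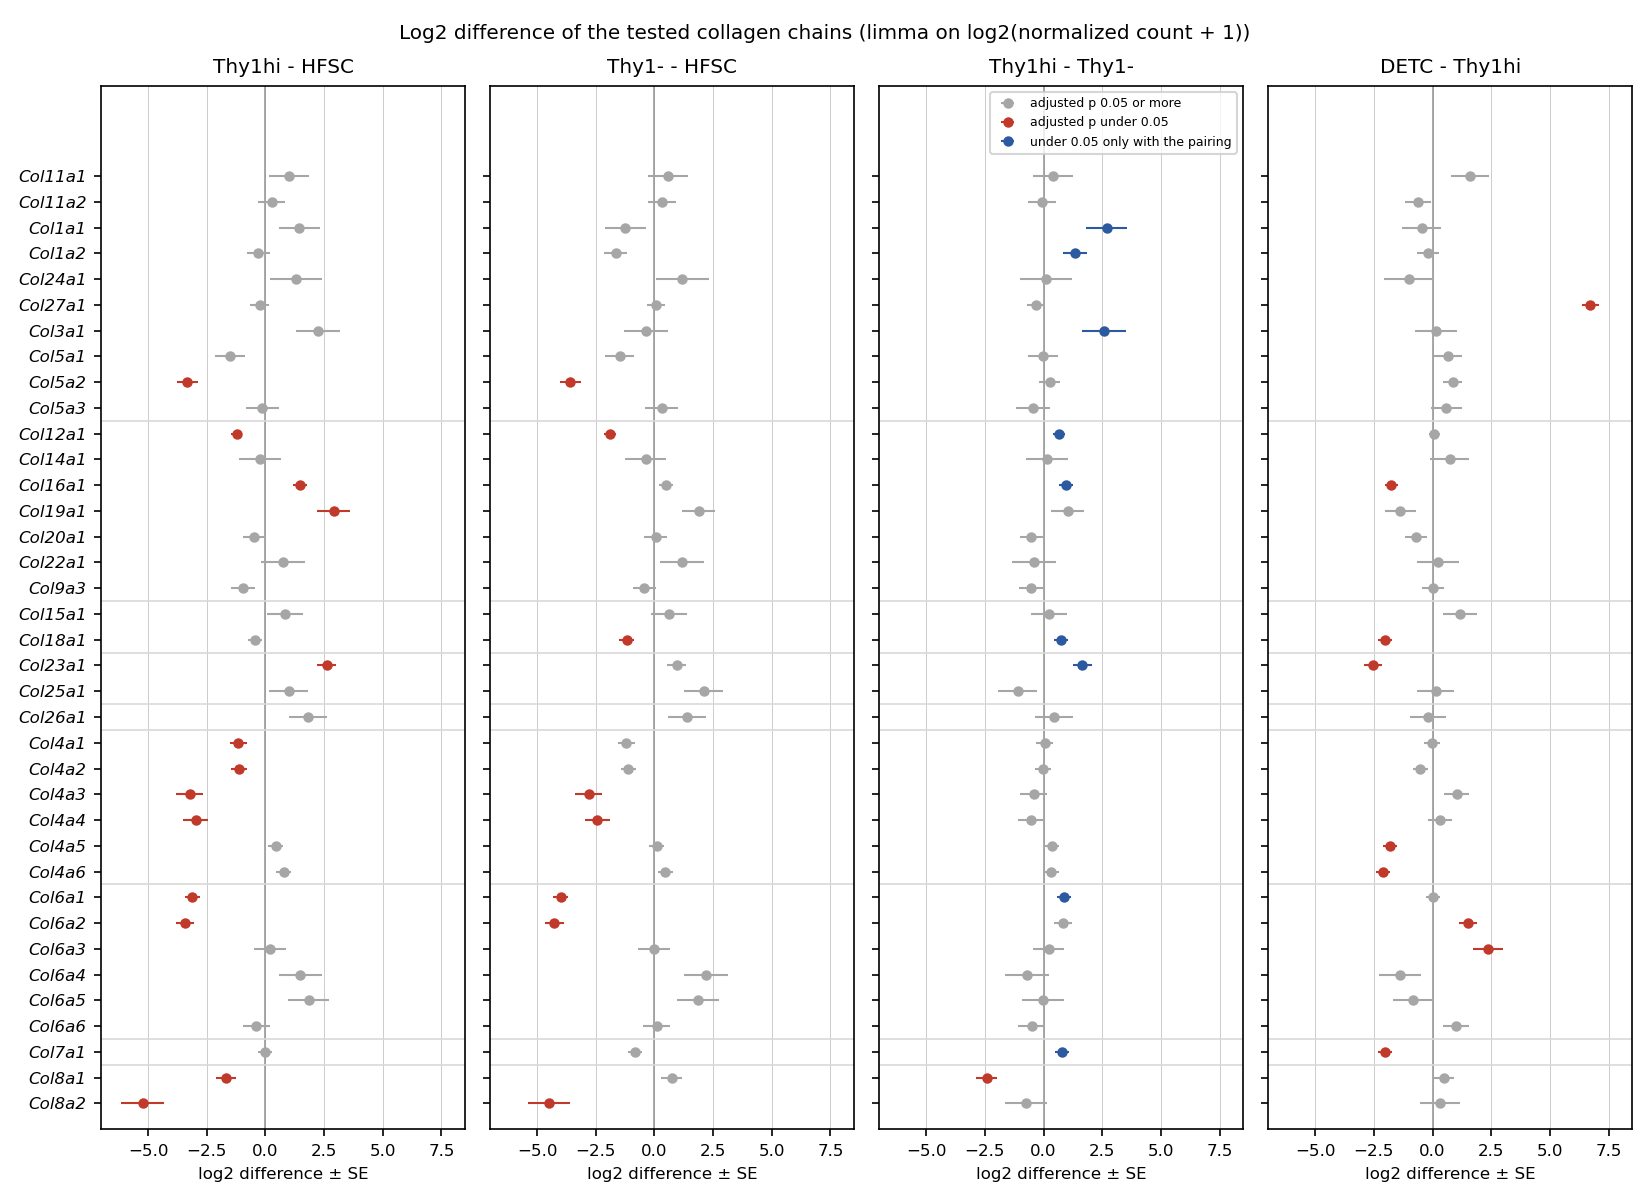
Each panel is 1 comparison and each point the log2 difference of a tested chain with its SE (horizontal axis), by collagen family. Red points passed an adjusted p of 0.05. In the Thy1hi and Thy1- panel blue points passed only with the assumed pairing by replicate number, which adds 9 chains to Col8a1.

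Col27a1 was higher in DETCs than in Thy1hi cells and HFSCs. Its level was 2245, 2549, 3173, 4589 and 2237 in the 5 DETC libraries, and at most 54.0 in all the others. The log2 difference was 6.72 ± 0.37 (SE), adjusted p = 7.10e-11 against Thy1hi cells and 6.47 ± 0.37 (SE), adjusted p = 1.12e-10 against HFSCs, and the exact tests gave p = 0.00794 for both, the smallest that 5 against 4 libraries allow. The highest value was that of library a, which had the least Krt14 of the 5, the type I keratin of basal keratinocytes, at 3319. Col6a3 lay at 251, 724, 214, 217 and 319 in DETCs, above all Thy1hi libraries (log2 difference 2.35 ± 0.64 (SE), adjusted p = 0.00587). Col6a2 lay at 151, 199, 90.1, 121 and 57.6 in DETCs (log2 difference 1.51 ± 0.37 (SE), adjusted p = 0.00272). Its groups overlapped, since DETC library b lay below Thy1hi library 1 at 61.8. Chains with low levels were higher than in HFSCs too. Col11a1 lay at 5.87, 41.7, 10.3, 34.3 and 12.0 in DETC and 0, 5.43, 3.21 and 1.40 in HFSC libraries (2.60 ± 0.81 (SE), adjusted p = 0.0144), and Col15a1 at 9.78, 45.8, 11.1, 17.8 and 10.8 in DETC and 2.31, 10.9, 6.41 and 0 in HFSC libraries (2.03 ± 0.73 (SE), adjusted p = 0.0315). The Col11a1 call was lost without HFSC library 1, and the Col15a1 call without HFSC library 1 or 4 or DETC library 2 or a, without the filter, with edgeR and with only these libraries in the fit. Col3a1 was also higher than in HFSCs (2.39 ± 0.89 (SE), adjusted p = 0.0373), a call lost without HFSC library 1, 3 or 4 or DETC library 2 or a, at a pseudocount of 0.1, without the filter and with edgeR or DESeq2. Some markers of stromal and vascular cells were also higher in DETCs than in HFSCs. Pdgfrb, a pericyte receptor, lay at 47.0, 71.2, 55.3, 68.6 and 72.1 in DETC and 4.62, 17.4, 5.35 and 0 in HFSC libraries (3.64 ± 0.66 (SE), adjusted p = 1.79e-04), and its log2 difference from Thy1hi cells was 2.65 ± 0.66 (SE), adjusted p = 0.00313. Pdgfra lay at 65.6, 142, 45.1, 27.4 and 52.8 in DETC and 39.2, 19.6, 26.7 and 10.5 in HFSC libraries (1.36 ± 0.45 (SE), adjusted p = 0.0199), highest in DETC library 2, as Col6a3 was. The endothelial cadherin Cdh5 lay at 12.7, 12.2, 3.16, 12.3 and 13.2 in DETC and 0, 0, 1.07 and 0 in HFSC libraries (3.16 ± 0.61 (SE), adjusted p = 3.27e-04). Of the tested markers, 2 of 5 for endothelium, 1 of 4 for pericytes and 1 of 5 for fibroblasts were higher in DETCs, where 21.2% of all genes were. Cspg4 and Fbln1 were lower, and the part of these cells in the higher chains was not tested. Same-numbered DETC and HFSC libraries had r of 0.17 to 0.333 over 3 pairs. Differently numbered ones had -0.318 to 0.371, so the numbers do not set the pairs apart. With the number as a block 22 chains passed, 7 higher and 15 lower, where 42.2% of all genes did (22.6% higher, 19.6% lower). Col19a1, Col6a6 and Col9a3 were gained and Col20a1 was lost. Col7a1 at 984, 1169, 1300.5, 335 and 1095, Col16a1 at 511, 565, 723, 316 and 521, Col18a1 at 403, 513, 414, 209 and 651 and Col23a1 at 221, 222, 277, 49.4 and 189 lay below all Thy1hi libraries, and passed with log2 differences of -2.04, -1.75, -2.03 and -2.55. Basal keratinocyte markers summed to 9972 to 46131 in DETCs, below the Thy1hi range.

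YFP cells, a Thy1-positive keratinocyte population, had no chain that passed against Thy1hi cells, where 0.0116% of all genes passed (2 genes). The difference was positive in 7 chains and negative in 30, a split not counted over all genes. The median log2 difference was -0.79 for the chains and -0.04 for all tested genes. At an unadjusted p under 0.05 there were 10 chains in the limma fit, beside 1561 of all 17204 genes, while edgeR on whole reads called 0 chains and 0.0116% of all genes and DESeq2 called 3 chains and 0.593% of all genes. Col1a1 lay at 12.0, 65.0 and 3.96 and Col3a1 at 1.99, 36.4 and 0.990, with log2 differences from Thy1hi cells of -3.88 ± 0.94 (SE), adjusted p = 0.168 and -4.57 ± 1.01 (SE), adjusted p = 0.128. Against Thy1- cells 2 chains passed, where 0.761% of all genes did (0.546% higher, 0.215% lower). Col12a1 was higher, at 1121, 703 and 1162 (1.25 ± 0.27 (SE), adjusted p = 0.0354), and Col8a1 lower, at 8.97, 14.7 and 2.97 (-2.47 ± 0.48 (SE), adjusted p = 0.0203). Both calls were lost without YFP library 1 or 3 or Thy1- library 3 or 4, and that of Col12a1 also without Thy1hi library 1 or Thy1- library 1 or 2. Col23a1 lay at 683, 534 and 1138 and Col18a1 at 2863, 2259 and 1817.

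Of the 30 tested genes for biosynthesis, folding, processing and crosslinking, 1 passed between Thy1hi and Thy1- cells, beside 0.337% of all genes, and 4 with the block, beside 6.61%, all higher in Thy1hi cells. Between Thy1hi cells and HFSCs 2 were higher and 5 lower in Thy1hi cells, where 6.51% of all genes were higher and 6.86% lower. Those lower in Thy1hi cells were Pxdn, which crosslinks type IV collagen (-1.87 ± 0.54 (SE), adjusted p = 0.0239), Tll1, a procollagen C-proteinase (-1.95 ± 0.63 (SE), adjusted p = 0.0446), Adamts3, a procollagen N-proteinase (-3.18 ± 0.94 (SE), adjusted p = 0.0284), Fkbp10, a collagen prolyl isomerase (-3.58 ± 0.80 (SE), adjusted p = 0.00469), and Pcolce2, which enhances the trimming of fibrillar procollagen (-3.98 ± 0.80 (SE), adjusted p = 0.00193). Adamts14, another N-proteinase, was higher in Thy1hi cells than in HFSCs (2.27 ± 0.48 (SE), adjusted p = 0.00286), as was P4ha1, a prolyl hydroxylase subunit (0.98 ± 0.26 (SE), adjusted p = 0.0134). Sparc, a collagen-binding protein, was higher in Thy1hi than in Thy1- cells (2.71 ± 0.30 (SE), adjusted p = 1.98e-04). Of the 10 collagen receptors, 2 were higher in Thy1hi cells than in HFSCs, namely Mrc2, the endocytic collagen receptor (2.24 ± 0.27 (SE), adjusted p = 1.25e-05), and Itgb1, the common integrin β1 chain (1.05 ± 0.20 (SE), adjusted p = 0.00135). Of the 8 basement membrane partners, 1 was higher, Lamc1 (0.64 ± 0.20 (SE), adjusted p = 0.0412). Medians of the log2 differences between Thy1hi cells and HFSCs were -0.05 for biosynthesis, 0.99 for receptors and 0.12 for basement membrane partners, beside 0.02 for all genes.

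The 13 other tested chains reached at most 206 in any library, in Col5a1. None of them passed in the comparisons of keratinocyte populations, and Col20a1 alone passed elsewhere, lower in DETCs than in HFSCs (-1.20 ± 0.46 (SE), adjusted p = 0.0460), a call that most other settings did not keep.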

How the data were processed

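RNA was sequenced in bulk from 5 sorted populations. Per the labels, the authors aligned reads with STAR to mm10 and counted them with featureCounts, and the deposited values are normalized counts, a signal. How they were normalized is not stated, and the study names DESeq2 for downstream analyses. Versions of STAR and featureCounts are not given in the sources used here. Divided by 1 factor per library, every value (100%) was a whole number of reads within the rounding of the file to 2 decimals. The column of Thy1- library 4 was in another row order, and 3212 rows, none a collagen, were moved back (r with the other Thy1- libraries 0.0606 before and 0.932 after). No per-sample column was left out.

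Values were analysed as log2(value + 1) with limma 3.58.1 in R 4.3.3, all 20 libraries in 1 fit, for genes at 10 or more in at least 3 libraries, with Benjamini-Hochberg adjustment over all 17204 genes and a threshold of 0.05. Exact two-sided permutation tests were run for single chains. Alternatives were edgeR 4.0.16 and DESeq2 1.42.0 on the whole reads, other pseudocounts, filters and scalings, left-out libraries, and the replicate number as a block, fitted only on the populations compared and without libraries that have no partner. A rescaling without Rn45s was chosen after seeing the data. Deviations of same-numbered Thy1hi and Thy1- libraries had r of 0.293 to 0.716, from the data, and those of differently numbered ones -0.651 to 0.514. These ranges overlap, and the titles do not state a pairing. For DETCs and HFSCs these were 0.17 to 0.333 over 3 pairs and -0.318 to 0.371. The numbers thus do not set the DETC and HFSC pairs apart. The limma script was tested on simulated data. Between 7781256 and 12982393 reads fell on genes, which limits the precision of chains with few reads.

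Members and lists were chosen with earlier results of these data known. Values in every library are given for Col1a1, Col3a1, Col8a1, Col8a2 and chains called between Thy1hi cells, Thy1- cells and HFSCs, with or without the block for the first pair. Differences are given for up to 10 pathway genes called there by size, to which Lamc1 was added. Col27a1, Col6a3, Col11a1, Col15a1, Col4a5, Col4a6, the gene pairs correlated and the promoters shown were chosen after their values were seen.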

Additional observations from a re-analysis of the deposited data

Results flagged for a closer look

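In 6 of the 96 sets of 4 or 5 libraries examined over 24 chains, 1 library stood far from the rest of its population, with a gap to its nearest neighbour that, divided by the range, was over Dixon's critical value. For independent values with a normal distribution, that value is set so that chance passes it in about 1 of 20 sets. Normalized counts were used here without logs, and the chains share libraries. The rate by chance is thus not known here, and the sets are listed as a description. In DETC library 2, Col15a1 lay at 45.8 (the others at 9.78 to 17.8), Col19a1 at 12.2 (2.74 to 4.89) and Col6a3 at 724 (214 to 319). Thy1- library 4 had Col16a1 at 1300.1, against 725 to 822 in the others. Col19a1 lay at 9.11 in HFSC library 4 and at 0 to 1.07 in the others. Col4a2 lay at 341 in Thy1hi library 4 and at 165 to 185 in the others.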

How the results depend on the processing

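The 37 chains gave these numbers of calls under other settings. With genes of mean 50 or more, chains below that mean were not tested, Col8a1 among them. Its calls against Thy1- cells are absent there without having failed a test. The replicate block was fitted on only the 2 populations compared, without unpaired libraries. For Thy1hi against Thy1- cells the 1 call became 0 with genes of mean 50 or more, 4 with DESeq2 (all genes called 0.337% to 1.22%), 3 with only these libraries in the fit, 0 without replicate 4 of both and 10 with the replicate block, and 0 to 3 when a library was left out. For Thy1hi cells against HFSCs the 13 calls became 8 with the replicate block (12 with only these libraries and no block, where Col4a1 and Col4a2 were already lost), whose numbers do not pair those samples (r of -0.232 to 0.162), and 10 to 14 when a library was left out. For Thy1- cells against HFSCs the 8 calls became 13 with DESeq2 and 15 without replicate 4 of both Thy1hi and Thy1- (all genes 6.08% to 14.0% and 15.0%), and 7 to 13 when a library was left out, 13 without DETC library a. For DETCs the calls were 16 to 20 against HFSCs and 9 to 11 against Thy1hi cells when a library was left out, and 14 with the replicate block against Thy1hi cells (all genes 36.6% to 42.7%), whose numbers do not pair. For YFP against Thy1hi cells the 0 calls became 3 with DESeq2, and 0 to 1 when a library was left out, 1 without HFSC library 4 or YFP library 2. For YFP against Thy1- cells the 2 calls became 1 without a filter, 1 with genes of mean 50 or more, 1 with rescaled libraries, 5 with DESeq2 and 0 without replicate 4 of both, and 0 to 4 when a library was left out. The block fit, without Thy1- library 4, called 2 other chains, Col18a1 and Col23a1, while Col12a1 and Col8a1 were also lost without that library and no block. The 1 pathway gene called between Thy1hi and Thy1- cells became 7 with the replicate block. The cause was not tested.

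Calls kept in every setting and every left-out library were 14 of 20 for DETCs against HFSCs, 9 of 9 against Thy1hi cells, 8 of 13 for Thy1hi cells against HFSCs, 6 of 8 for Thy1- cells against HFSCs, 0 of 1 for Thy1hi against Thy1- cells and 0 of 2 for YFP against Thy1- cells. No called difference changed sign. Rescaling every library to 1 total moved the median over all genes from 0.04 to 0.25 for Thy1- cells against HFSCs, where the genes called went from 440 higher and 606 lower to 896 higher and 356 lower. The YFP values of the block fit equal those without replicate 4 of both. The sign changes below are all of differences that did not pass, named by chain and by the populations in the order of subtraction. With libraries rescaled to 1 total without Rn45s, sign changes were -0.0138 for Col12a1, DETC and Thy1hi, -0.0315 for Col4a1, Thy1hi and Thy1-, -0.0682 for Col6a1, DETC and Thy1hi, 0.0246 for Col7a1, Thy1hi and HFSC. With the replicate block, on only the 2 populations compared and without unpaired libraries, sign changes were -0.343 for Col12a1, DETC and Thy1hi, -0.143 for Col19a1, YFP and Thy1-, 0.285 for Col4a1, DETC and Thy1hi, -0.0389 for Col6a2, YFP and Thy1hi, 0.0707 for Col8a1, YFP and Thy1hi. With edgeR, sign changes were -0.0264 for Col19a1, YFP and Thy1-, 0.110 for Col1a2, Thy1hi and HFSC, -0.163 for Col3a1, DETC and Thy1hi, 0.00272 for Col4a1, DETC and Thy1hi, 0.0750 for Col4a3, YFP and Thy1hi, 0.00419 for Col4a4, YFP and Thy1hi, -0.0799 for Col6a3, Thy1hi and HFSC, 0.104 for Col8a1, YFP and Thy1hi. Without replicate 4 of both Thy1hi and Thy1-, sign changes were -0.143 for Col19a1, YFP and Thy1-, 0.0442 for Col1a2, Thy1hi and HFSC, 0.0862 for Col4a1, DETC and Thy1hi, -0.0389 for Col6a2, YFP and Thy1hi, 0.0707 for Col8a1, YFP and Thy1hi. With DESeq2, sign changes were 0.152 for Col1a2, Thy1hi and HFSC, -0.177 for Col3a1, DETC and Thy1hi, 0.0455 for Col4a3, YFP and Thy1hi, -0.0129 for Col6a2, YFP and Thy1hi, -0.0674 for Col6a3, Thy1hi and HFSC, 0.109 for Col8a1, YFP and Thy1hi. With libraries rescaled to 1 total, sign changes were -0.0820 for Col4a1, Thy1hi and Thy1-, -0.0454 for Col6a1, DETC and Thy1hi, -0.0473 for Col6a1, YFP and Thy1-, 0.0621 for Col7a1, Thy1hi and HFSC, -0.00277 for Col8a2, YFP and Thy1-. At a pseudocount of 10, sign changes were -6.91e-04 for Col6a2, YFP and Thy1hi. At a pseudocount of 0.1, sign changes were -0.265 for Col8a2, DETC and Thy1hi. Leaving out 1 library at a time, the log2 differences that changed sign ran from -0.164 to 0.197 for Col12a1, DETC and Thy1hi, -0.609 to 0.00245 for Col16a1, DETC and HFSC, -0.143 to 0.628 for Col19a1, YFP and Thy1-, -1.20 to 0.180 for Col1a1, DETC and Thy1hi, -0.628 to 0.309 for Col1a2, DETC and Thy1hi, -0.814 to 0.122 for Col1a2, Thy1hi and HFSC, -0.230 to 0.493 for Col23a1, DETC and HFSC, -0.484 to 0.721 for Col3a1, DETC and Thy1hi, -1.28 to 0.353 for Col3a1, Thy1- and HFSC, -0.189 to 0.119 for Col4a1, DETC and Thy1hi, -0.103 to 0.206 for Col4a1, Thy1hi and Thy1-, -0.247 to 0.227 for Col4a2, Thy1hi and Thy1-, -0.814 to 0.0245 for Col4a3, Thy1hi and Thy1-, -0.827 to 0.438 for Col4a3, YFP and Thy1hi, -1.25 to 0.0131 for Col4a3, YFP and Thy1-, -0.926 to 0.484 for Col4a4, YFP and Thy1hi, -0.129 to 0.132 for Col6a1, DETC and Thy1hi, -0.402 to 0.306 for Col6a1, YFP and Thy1-, -0.155 to 0.242 for Col6a2, YFP and Thy1hi, -0.602 to 0.553 for Col6a3, Thy1hi and HFSC, -0.125 to 0.0836 for Col7a1, Thy1hi and HFSC, -0.500 to 0.492 for Col8a1, YFP and Thy1hi, -0.0963 to 1.40 for Col8a2, DETC and Thy1hi, -0.333 to 0.906 for Col8a2, YFP and Thy1-.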
